A study of Helianthus annuus with 9 samples.

Results

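Small interfering RNAs (siRNAs) of 24 nt that were present in sunflower seeds at day 7 and listed at 0 at day 37 are described here. An entry belonged to this set when its guide, the strand of the duplex taken as active, was 24 nt long, when it had a count of at least 10 reads in all 3 libraries of day 7, and when its count was 0 in all 3 libraries of day 37. This held for 1133 of 2883 24-nt siRNA entries (39.3%), out of 8473 small RNA entries in all, and the day 7 and day 37 counts that chose them are given as a description only. Day 22 counts and the base content of the guides took no part in the choice.

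The seeds came from field-grown plants of the Helianthus annuus line L-1-OL-1, which the series describes as high in oleic acid, with 3 libraries at each of 7, 22 and 37 days, no treatment and no other genotype. The sources used here give neither the starting event of the day count nor whether the 3 libraries of an age are of different plants. The p-values therefore rest on the spread among libraries, which may be technical. Seeds were sampled in bulk, and fewer cells of a tissue cannot be told apart from fewer siRNAs per cell. A library of day 7 held 2208822 to 2327154 reads in small RNA entries, one of day 22 held 3330516 to 3674565 and one of day 37 held 3748994 to 4050364. Libraries of day 37 thus held more small RNA reads than those of day 7, before any scaling. In 24-nt siRNA entries the day 7 libraries held 417942 to 453482 reads, those of day 22 held 322532 to 344110 and those of day 37 held 368356 to 419598. Fragments of structural RNA, such as ribosomal and transfer RNA, took 3.30% to 4.17% of small RNA reads at day 7, 3.97% to 6.61% at day 22 and 14.4% to 22.3% at day 37, and their part in the results was not tested. The lowest siRNA count above 0 was 10 in the whole table, so a listed 0 is read here as 9 reads or fewer.

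In plants, 24-nt siRNAs are made by the RNA polymerase IV pathway, in which RDR2 copies a transcript into double-stranded RNA and DCL3 cuts it. They are loaded into Argonaute proteins of the AGO4 group, which in Arabidopsis favour a guide that starts with adenine, and direct DNA methylation, mostly at transposons and other repeats. In Arabidopsis and Brassica rapa, ovules and young seeds carry abundant 24-nt siRNAs from a limited number of loci that are active in maternal tissue.

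The guides with the highest day 7 level under each first base show what the entries look like, with the first base in capitals. Sequences are given 5′ to 3′ as deposited, with T for U.
novel_sir825: Aaacgagtcaaagggtaggtcttg
novel_sir264: Aagaaccggatgaagtagaattct
novel_sir19710: Caaaactatccgtatccgaaaatc
novel_sir16690: Cggatacggatagttttgaacacc
novel_sir11443: Ggatgcctcctagacctaagtaat
novel_sir10863: Gccgattcacaaacccgtgttata
novel_sir11450: Tacgcaagaaccggatgaagtaga
novel_sir17080: Tatgcctcctagacctaagtaatg
In all 7732 counted siRNA entries with a sequence line, the passenger strand was the complement of the guide, letter under letter and offset by 2 nt, as in a duplex with 3′ overhangs whose guide is written from its 5′ end. The first letter was therefore read as the 5′ base. Entries are duplexes rather than single strands, since 45 of the entries share 20 guides and differ in the passenger, and their counts differ too. For example, novel_sir15535 and novel_sir15536 have one guide and had 439, 431 and 536 against 449, 513 and 533 reads in the 3 day 7 libraries. The 1133 entries hold 1108 distinct guides.

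The set was a large part of the 24-nt siRNA reads at day 7 and a small one at day 22. Summed over its entries, the day 7 libraries held 102853, 109631 and 113961 reads and the day 22 libraries 7366, 6824 and 7493 reads. As a share of 24-nt siRNA reads this was 24.8% ± 0.291 at day 7 and 2.19% ± 0.112 at day 22 (SD, n = 3), and as a share of all small RNA reads 4.80% ± 0.212 and 0.207% ± 0.00376. If every 0 stood for 9 reads, the set would still hold no more than 4.26% to 4.56% of 24-nt siRNA reads at day 22. In CPM, the usual depth-scaled count with library sizes adjusted by TMM factors, the sum went from 34999 ± 706.5 to 2057 ± 101, which is 17.0-fold lower. Over the same interval the 985 24-nt siRNAs with at least 10 reads in all 9 libraries held 299931 ± 11013 reads at day 7 and 309904 ± 12159 at day 22. These 2 sums are not scaled by depth, which was higher at day 22. As a share of small RNA reads the 985 entries went from 13.2% ± 0.344 to 8.87% ± 0.573. As a share of 24-nt siRNA reads these entries went from 68.4% ± 0.430 to 94.0% ± 0.388. Fixing their membership by counts at all days makes this a description too.

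**Figure D1:**
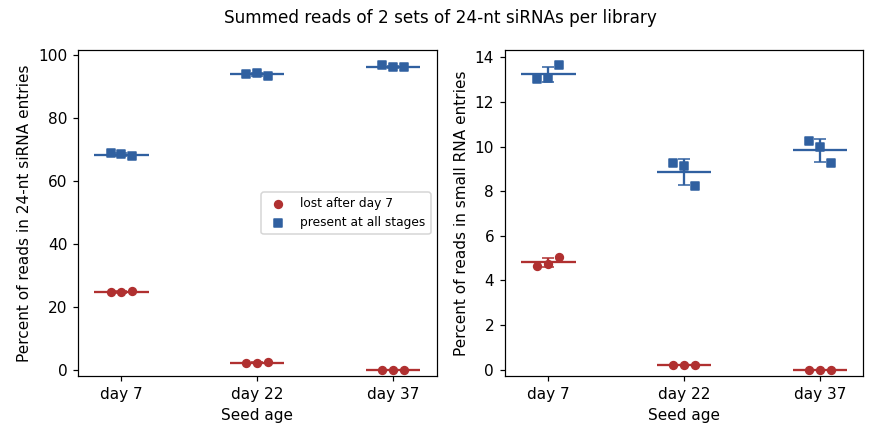
Reads summed over the 24-nt siRNAs lost after day 7 (red circles) and over those with at least 10 reads in all 9 libraries (blue squares), as a percent of reads in 24-nt siRNA entries (left) and in all small RNA entries (right), against seed age. Each point is 1 library, with a line at the mean and SD bars (n = 3); the red values are near 24.8% at day 7 and 2.19% at day 22, and 0 at day 37 by the rule.

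Levels at day 7 were spread widely. The mean day 7 count per entry ran from 10.0 reads over a median of 43.3 to 1771 reads, and the highest of 3 libraries was at the median 1.4 times the lowest, with a ratio over 3 in 32 entries. The rule, which asks for reads in every day 7 library, limits that ratio. The 10 most abundant entries held 10.8% of the set's day 7 reads, the top 50 held 32.4% and the top 100 held 46.1%. In 230 entries the lowest day 7 library had 100 reads or more, and in 333 it had fewer than 20. For the latter a change to 0 can be a change to just under the lowest listed count.

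At day 22, which the rule did not use, 754 of the 1133 entries (66.5%) were listed at 0 in all 3 libraries, 100 had reads in 1 library, 84 in 2 and 195 (17.2%) in all 3. The libraries were alike in this, with 285, 277 and 291 entries above 0. Where reads stood in only 1 or 2 libraries they were few, at a median of 12 and a range of 10 to 36 reads, and 243 of these 268 values were under 20. The 195 entries with reads in all 3 libraries carried 83.7% of the set's day 22 reads. Their day 22 level was at the median 23.6% of the day 7 level, with a range of 2.19% to 192%, and 145 of them were below 50%.

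Among 24-nt siRNAs with the same day 7 minimum and reads in all day 37 libraries, 3 of 1001 (0.300%) were at 0 in all day 22 libraries and 985 (98.4%) had reads in all 3. Those entries were more abundant at day 7, with a median of 151 reads against 43.3. The 246 entries with reads in 1 or 2 day 37 libraries had a median of 46.3 reads at day 7, and 6.10% of them were at 0 in all day 22 libraries and 74.0% had reads in all 3. Within one range of day 7 levels the gap stayed wide. At a mean of 20 to 50 reads at day 7, 70.9% of 426 lost entries and 0.719% of 139 entries still present at day 37 were at 0 in all day 22 libraries, and at 100 to 200 reads these shares were 68.9% of 151 and 0 of 276. At 200 reads or more, 22.4% of 116 lost entries were at 0 in all day 22 libraries and 57.8% had reads in all 3. Since both sets were chosen on day 37 counts, these shares carry no test.

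**Figure D2:**
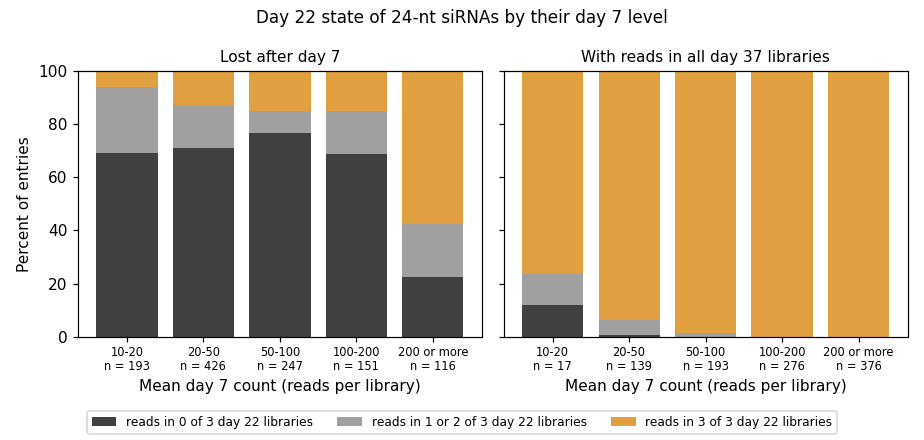
Percent of 24-nt siRNA entries with reads in 0, 1 or 2, or 3 of the 3 day 22 libraries (stacked bars), by mean day 7 count in reads per library, for entries lost after day 7 (left) and entries with reads in all day 37 libraries (right), with n under each bar. In the left panel 68.9% to 76.5% of entries under 200 reads were at 0 in all day 22 libraries, and 22.4% of those at 200 or more.

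In the comparison of day 22 with day 7, 969 entries fell and 0 rose, and 164 did not pass. The edgeR quasi-likelihood test was used, at an adjusted p under 0.05 over 7294 small RNA entries. Over all entries tested, 34.5% were called lower and 35.3% higher. The day 7 side of this contrast was used by the rule, so nothing is read from the count. No entry of the set was higher at an unadjusted p under 0.05 either, and DESeq2 called 998 lower and 0 higher. With a filter at a mean of 20 reads over the 9 libraries, which tests fewer entries, 463 fell. The median log2 change from day 7 to day 22 was -7.60 over the set and -0.01 over all entries, and -2.15 and -0.07 with every siRNA and predicted miRNA zero set to 9 reads. All 754 entries at 0 at day 22 passed, as did 147 of the 195 with reads in all 3 day 22 libraries. Setting zeros to 9 reads gave 1021 falls, of which 922 were among the 969. A constant has no spread among libraries, so this count is not a stricter check. The same setting also gave 3 rises, novel_sir145, novel_sir343 and novel_sir19001. These were low entries of 10 to 21 reads at day 7, with no 0 at day 7 or day 22. Their edgeR adjusted p was 0.264, 0.146 and 0.0959 with the zeros as deposited.

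Against 9 reads in each library, the 754 entries at 0 were at the median at least 5.25-fold lower at day 22, with bounds from 1.29 to 83.7. The bound was at least 10 in 186 entries and under 2 in 78. The entries with the highest day 7 level among them, picked after their values were seen, have these guides, with the first base in capitals.
novel_sir5909: Aaggattccaacggtgcaaacggt
novel_sir4420: Agctaggggtgttcaagatcggat
novel_sir4568: Aggattccaacggtgcaaacggtt
In the day 7 libraries novel_sir5909 had 623, 698 and 685 reads, and it was at 0 in all day 22 libraries, at least 83.7-fold lower. The entry novel_sir4568, with 456, 522 and 528 reads at day 7, was at least 62.8-fold lower, and novel_sir4420, with 509, 581 and 617 reads, at least 71.2-fold lower. The guides of novel_sir5909 and novel_sir4568 are one sequence shifted by 1 base, identical over 23 of 24 bases.

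The most abundant entry of the set at day 7 was novel_sir825, with 1745, 1898 and 1670 reads. At day 22 it had 0, 14 and 24 reads, so its day 22 mean of 3.52 ± 3.19 CPM was 0.618% of its 570.2 ± 39.9 CPM at day 7. Next came novel_sir264, with 1689, 1731 and 1794 reads at day 7 and 71, 67 and 59 at day 22. It fell by 4.90 on the log2 scale (SE 0.14, edgeR adjusted p = 1.72e-06), and no library of one day came near those of the other. The rule used its day 7 counts and it was named for them, so both are descriptions only. The entry novel_sir1837 had 1162, 1106 and 1103 reads at day 7 and 55, 22 and 15 at day 22, where its libraries spread more than 3-fold.

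Steep falls with reads left in every day 22 library were those of novel_sir11450, novel_sir8104, novel_sir15535 and novel_sir14507. The first had 972, 1022 and 999 reads at day 7 and 29, 23 and 22 at day 22, a log2 change of -5.51 (SE 0.15). The entry novel_sir8104 went from 729, 774 and 836 reads to 25, 19 and 17, and novel_sir14507 from 535, 578 and 493 to 17, 15 and 11. Day 22 levels of these were 2.19%, 2.32% and 2.39% of day 7, and novel_sir15535, with 11, 11 and 15 reads left, stood at 2.31%.

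The entry novel_sir10863 had 716, 787 and 824 reads at day 7 and 63, 54 and 60 at day 22, and fell by 3.89 on the log2 scale (SE 0.10). For novel_sir17080 the reads were 769, 876 and 803 and then 58, 64 and 77, a log2 change of -3.80 (SE 0.11), and for the cytosine-first novel_sir19710 they were 1062, 1211 and 1176 and then 55, 56 and 49, a log2 change of -4.60 (SE 0.14). In all 3 the lowest day 7 library was far above the highest library of day 22, and these entries were named for their high day 7 level.

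Other entries kept a larger part of their level to day 22. The highest at that day was novel_sir16690, with 822, 852 and 1180 reads at day 7 and 195, 216 and 276 at day 22, a log2 change of -2.24 (SE 0.17, edgeR adjusted p = 6.36e-05) to 21.2% of its day 7 level. It was named for its levels and the rule used its day 7 counts, so this p-value is a description only. The entry novel_sir9712 had 1013, 894 and 915 reads and then 190, 210 and 240, or 20.0% of day 7. Both then were at 0 in every day 37 library, as the rule requires, after 190 to 276 reads at day 22. Next in level were novel_sir11443 (47.9 ± 6.47 CPM at day 22, 12.5% of day 7), novel_sir8214 (40.3 ± 3.12 CPM, 15.5%) and novel_sir9834 (38.1 ± 3.90 CPM, 14.2%). Of these 5 guides 3 start with cytosine, printed here with that base in capitals where not shown above.
novel_sir9712: Ctgacacgacttgtgagaaaccgg
novel_sir8214: Cgaaatatccgatatccgaatccg

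**Figure D3:**
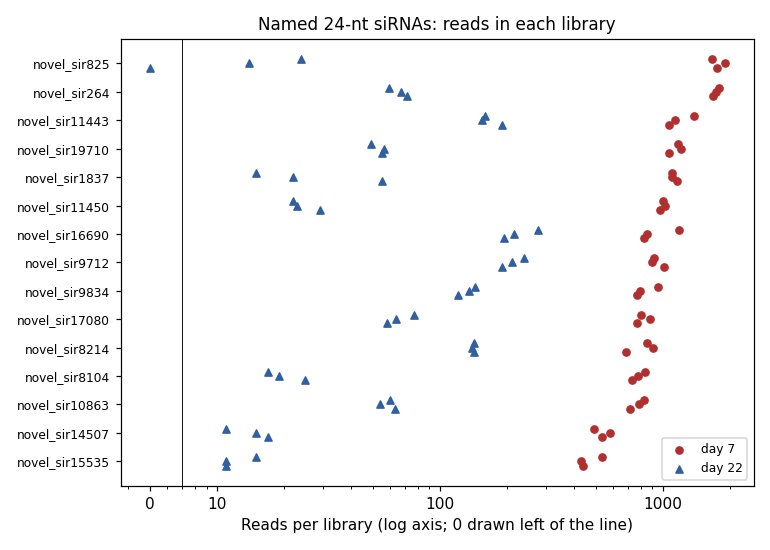
Reads in each library for the 15 named entries that were chosen by level or by fall, at day 7 (red circles) and day 22 (blue triangles), on a log axis with 0 drawn left of the vertical line. Each point is 1 library. The days do not overlap in any of the 15 entries, which follows largely from picking them by level or fall. No such share was taken over all entries. Day 22 reads run from 0 (novel_sir825) to 276 (novel_sir16690).

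Adenine was the first base of 1010 of the 1133 guides, or 89.1% (exact binomial 95% interval 87.2 to 90.9). Cytosine followed with 64 guides (5.65%), guanine with 32 (2.82%) and uracil with 27 (2.38%). Over all 2883 24-nt siRNAs adenine stood first in 84.6%, over the 985 present in all 9 libraries in 77.3% (74.5 to 79.8), over the 246 with the day 7 minimum and reads in 1 or 2 day 37 libraries in 90.2% (85.8 to 93.6), and over the 35 at 0 at day 7 with at least 10 reads in all day 37 libraries in 28.6% (14.6 to 46.3). The intervals of the lost set and of those 246 entries overlap. At the second position adenine stood in 36.2% of the set, in 35.4% of those 246 and in 25.9% of the entries present in all 9 libraries. The last base was T in 32.8%, G in 24.3%, A in 23.2% and C in 19.7% of the set. On the passenger strand the 5′ base was A in 34.4% and T in 30.5%. Intervals cover counting error only, and guides that share sequence are not independent.

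The adenine share went with the level. Among lost entries it was 94.3% at a mean of 10 to 20 reads at day 7, 92.3% at 20 to 50, 89.5% at 50 to 100, 86.1% at 100 to 200 and 72.4% at 200 or more. Among 24-nt siRNAs with reads in all day 37 libraries it went from 58.8% (10 of 17) over 68.3%, 78.8% and 83.0% to 76.1% in the same ranges. The sets were thus far apart at low levels and close from 100 reads up. At 200 reads or more the lost set had the lower share. Weighted by the entries' reads, guides that start with adenine held 79.6%, 79.6% and 79.1% of the set's reads in the 3 day 7 libraries, and 76.1% ± 0.320 in the entries present in all 9 libraries. The files do not state whether an entry's count includes reads of the passenger strand, so these are shares of entry counts by the guide's first base and may not be shares of reads that start with it.

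**Figure D4:**
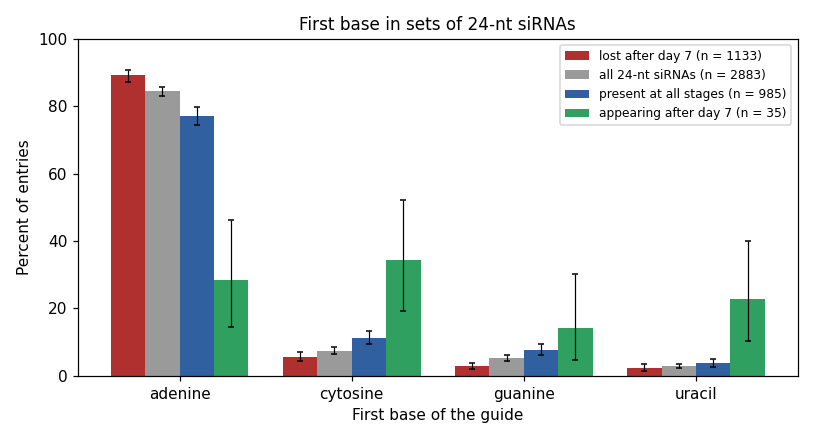
Percent of 24-nt siRNA entries whose guide starts with each base, for entries lost after day 7, all entries, entries with at least 10 reads in all 9 libraries and entries appearing after day 7; bars with exact binomial 95% intervals. Adenine leads with 89.1%, 84.6% and 77.3% in the first 3 sets, and is at 28.6% among the 35 that appeared.

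By first base, day 22 states differed most for cytosine. Of the 64 guides that start with cytosine 25 (39.1%) had reads in all 3 day 22 libraries, against 159 of 1010 (15.7%) for adenine, 7 of 32 (21.9%) for guanine and 4 of 27 (14.8%) for uracil. Cytosine guides were also more abundant at day 7, with a median of 90.2 reads against 41.7 for adenine, 83.7 for guanine and 45.3 for uracil. Summed CPM was 18.4-fold lower at day 22 for adenine, 10.8-fold for cytosine, 15.0-fold for guanine and 29.8-fold for uracil. The share of the set's reads in entries with a cytosine-first guide was 11.9% ± 0.0807 at day 7 and 18.9% ± 1.11 at day 22, while that of adenine went from 79.4% ± 0.269 to 73.3% ± 1.18 (SD, n = 3). Without novel_sir16690, novel_sir9712 and novel_sir8214 the cytosine share was 9.70% ± 0.0425 and 11.8% ± 0.459, so those 3 entries carried most of the difference. They were picked after their values were seen. Over all 24-nt siRNAs, entries with a cytosine-first guide held 13.2% ± 0.175 of reads at day 7 and 20.1% ± 1.07 at day 22.

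**Figure D5:**
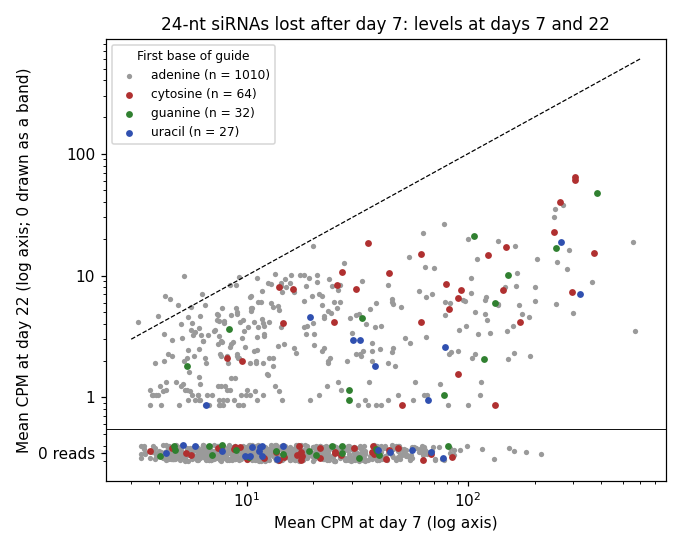
Mean CPM at day 22 against mean CPM at day 7 for the 1133 lost entries, both on log axes, coloured by the first base of the guide; entries at 0 in all day 22 libraries lie in the band at the bottom, jittered for legibility, and the dashed line marks equal levels. The 754 entries in the band reach a day 7 level of 215 CPM (novel_sir5909), and the highest day 22 values belong to guides that start with cytosine (novel_sir16690, novel_sir9712).

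The guides held 43.4% ± 8.69 G and C (SD over the 1133 entries), with 47.7% ± 9.83 in the entries present in all 9 libraries and 45.2% ± 9.44 over all 24-nt siRNAs. Entries at 0 at day 22 had 43.0% ± 8.76 and those with reads in all 3 day 22 libraries 44.3% ± 7.75, and no test over guides was made. Adenine-first guides had 42.8% and cytosine-first guides 49.3%.

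Some guides of the set were variants of the same sequence. By count, 41.0% of lost guides shared a run of 16 bases with any other siRNA guide, 47.3% of all 24-nt guides did and 65.4% of those present in all 9 libraries. Lost guides were joined when they shared a run of 16 bases on the same or the opposite strand. By this, 344 of the 1108 distinct guides fell into 109 groups and 764 stood alone, and 14 groups had at least 5 guides. In 79 of the 109 groups all entries agreed in being either at 0 in all day 22 libraries or above 0 in at least 1. With 66.5% of the set at 0 in all day 22 libraries, many small groups agree without any link. Nothing is read from this count. Such a run was shared with an siRNA guide of any length that had reads in all day 37 libraries by 8.94% of the lost guides and 28.6% of all 24-nt guides. Of the guides present in all 9 libraries, 12.3% shared one with a lost guide and 57.7% with a guide in all day 37 libraries, themselves not counted.

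The largest group had 25 guides in 32 entries. A run of 19 bases, ATCCGATCTTGAACACCCC, or its reverse complement was found in 17 of these guides. It stands in capitals in the following examples from both strands, which share it while their ends differ.
novel_sir4419: cattaGGGGTGTTCAAGATCGGAT
novel_sir4426: aactaGGGGTGTTCAAGATCGGAT
novel_sir12937: attaGGGGTGTTCAAGATCGGATa
novel_sir9486: attATCCGATCTTGAACACCCCtg
novel_sir9490: ataATCCGATCTTGAACACCCCtg
novel_sir9480: attATCCGATCTTGAACACCCCaa
Together the 32 entries had 8657, 9085 and 9034 reads at day 7 and 530, 485 and 425 at day 22, from 2873 ± 52.5 to 137 ± 23.8 CPM, 20.9-fold lower. Single entries of the group differed at day 22. The entry novel_sir9486 had 742, 827 and 730 reads at day 7 and kept 132, 125 and 113, whereas novel_sir4420, shown above, had 0 and novel_sir4419 went from 910, 896 and 937 to 34, 21 and 22. All 32 were called lower. The run was found on either strand in 22 of 2883 24-nt guides (0.763%), of which 20 were lost entries (1.77% of the set) and none was among the 985 present in all 9 libraries; it was read off the lost guides themselves, so these shares carry no test.

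A second group of 15 guides centred on GATACGGATTCGG, found on either strand in 10 of them, and had 2579, 2786 and 2824 reads at day 7 and 166, 128 and 157 at day 22 (20.6-fold lower in CPM). Its most abundant entries with the run show it in capitals.
novel_sir4872: cgaaatttcgGATACGGATTCGGt
novel_sir12415: cgGATACGGATTCGGatagtgaaa
novel_sir7392: CCGAATCCGTATCcgaaatttcag
Of its 15 entries 7 start with adenine, and of the 32 in the largest group 26. That run was held by 12 of all 24-nt guides (0.416%), of which 11 were lost entries, and by 1 of the 985 present in all 9 libraries (0.102%). It too was read off the lost guides, so these shares carry no test.

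The next group, of 10 guides in 12 entries, includes novel_sir825 and has AACGAGTCAAAGG or its complement in 7 guides, in capitals in these examples. Its sum was 77.3-fold lower at day 22, the most among the 5 largest groups, at 1289.8 ± 20.6 and 16.7 ± 1.48 CPM, and all 12 entries start with adenine.
novel_sir825: aAACGAGTCAAAGGgtaggtcttg
novel_sir11484: AACGAGTCAAAGGgtagttctagg
novel_sir7219: aaaattttggAACGAGTCAAAGGg
novel_sir2979: acCCTTTGACTCGTTccaaaattg
In novel_sir7219 the 3 day 7 libraries had 452, 391 and 427 reads and the day 22 libraries 22, 15 and 25, while novel_sir2979 went from 183, 193 and 215 reads to 0. The run was held by 9 of all 24-nt guides (0.312%), of which 8 were lost entries and 1 still had day 37 reads, and by none of the 985. Further groups had 10 and 9 guides, with summed CPM 41.6-fold and 12.6-fold lower at day 22. The latter holds both cytosine-first guides novel_sir19710 and novel_sir16690, which are 2 strands of one sequence, AAAACTATCCGTATCC and its complement, and at day 22 stood at 4.13% and 21.2% of their day 7 levels. That run was in 9 of all 24-nt guides (0.312%), of which 8 were lost entries, and in none of the 985. These runs were also read off the lost guides, so their shares carry no test.

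Among the 4 lengths compared, the share that met the rule was highest at 24 nt. Under the same count rule, 1133 of 2380 24-nt siRNAs with the day 7 minimum (47.6%) were at 0 in all day 37 libraries, compared with 313 of 1818 at 21 nt (17.2%), 211 of 1042 at 22 nt (20.3%) and 47 of 231 at 23 nt (20.3%). Of these, 26.8% at 21 nt, 17.5% at 22 nt, 46.8% at 23 nt and 66.5% at 24 nt were at 0 in all day 22 libraries. Among entries that met the count rule, adenine stood first in 42.5%, 31.8% and 40.4% at the shorter lengths and in 89.1% at 24 nt. Over all entries with the day 7 minimum the shares were 37.0%, 27.3%, 38.1% and 84.2% in the same order. No test over entries was made of these shares. In the other direction, 35 24-nt siRNAs were at 0 at day 7 and had at least 10 reads in all day 37 libraries.

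At the edge of the rule, 71 entries had a day 7 library at exactly 10 reads. Among them novel_sir10227 had 12, 19 and 10 reads at day 7 and 0 at day 22, novel_sir10528 had 11, 10 and 22 and then 0, and novel_sir1037 had 21, 10 and 11 and then 0, 12 and 11. Just outside stood 134 entries with reads in 1 day 37 library and 112 with reads in 2. For instance novel_sir10432 had 84, 81 and 93 reads at day 7, 10, 23 and 14 at day 22 and 0, 0 and 10 at day 37, and novel_sir10524 had 47, 69 and 80, then 36, 25 and 31, then 0, 0 and 10. The entry novel_sir10777 had 25, 15 and 14 reads at day 7, 10, 0 and 0 at day 22 and 10, 0 and 0 at day 37. A further 183 entries were at 0 at day 37 and reached 10 reads in 2 of 3 day 7 libraries.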

How the data were processed

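Total RNA of seeds was cut to 18 to 30 nt, ligated to 3′ adapters with molecular identifiers and made into libraries by a BGI500 protocol, per the labels' protocols. Bowtie2 is named in the submitters' processing notes. The sources used here do not give the genome build, the counting tool, the filters or the use of the identifiers. The authors deposited whole-number counts per small RNA entry, without normalization, and a column headed TPM that stays near the count, used here as a score in 1 alternative. The guide and passenger sequences, which are other values, were joined to the counts by siRNA name; 3 counted siRNAs have no sequence line and were not considered. All 9 count columns were used, and 3 totals (exon, intron, intergenic) were left out of library sizes.

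Tests used edgeR 4.0.16 under R 4.3.3 on counts (TMM factors, filterByExpr by day, quasi-likelihood F test, one fit of 9 libraries, Benjamini-Hochberg over 7294 entries) and were tested on simulated data. The simulated counts had no cut below 10 reads, so they do not bear on calls that rest on listed zeros. Standard errors are the log2 change over the root of F. Libraries of one day differed by more than sampling noise (chi-square per degree of freedom 10.1 to 81.6). DESeq2 1.42.0, other scalings, filters, zeros at 9 reads, the replicate number, other count limits and leaving out libraries were alternatives. Entries named are, by rule, the 5 highest at day 7 and at day 22, the 2 highest per first base, the 5 largest falls with reads in all day 22 libraries, the 5 largest rises among entries called higher (none) and 3 entries just inside and 3 just outside the rule; entries of the sequence groups, those listed at 0 at day 22 and the 3 that rose with zeros at 9 reads were chosen after their values were seen. The set and all lists were chosen with earlier results of these data known.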

Additional observations from a re-analysis of the deposited data

How the results depend on the processing

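With zeros at 9 reads 3 entries rose at day 22, and under the other alternatives run 0. Leaving out each library gave 1133 to 1219 entries, 756 to 817 at 0 at day 22, 972 to 1012 falls, 0 rises, adenine first in 89.1% to 89.5%, 4.71% to 5.09% of small RNA reads at day 7 and 0.204% to 0.250% at day 22. A minimum of 50 reads at day 7 left 453 entries, 270 at 0 at day 22, 450 falls, adenine first in 84.1%, and 3.91% and 0.139% of small RNA reads; with 20 reads the shares were 4.52% and 0.179%. Shares were 5.40% and 0.294% with 2 of 3 day 37 libraries at 0, 0.216% at day 22 with 2 of 3 day 7 libraries at the minimum, 4.54% and 0.195% with each guide once, and 5.06% and 0.225% with the values headed TPM. Of all reads they were 0.336% and 0.0216%, and of 24-nt siRNA reads 24.8% and 2.19%. A filter at a mean of 20 reads left 463 falls, since fewer entries were tested. With the replicate block 597 fell, all among the 969, and novel_sir10227 and novel_sir10528 no longer passed (adjusted p 0.137 and 0.133, and 0.000654 to 0.00802 over their other alternatives); the cause was not tested. Libraries with the same number did not deviate together (correlation -0.04 to 0.05), so the numbers were not taken to pair samples. Scaling by RLE, library totals and all reads shifted the median log2 change of all entries by -0.34, -0.45 and 0.13; all 969 falls were kept with RLE and library totals, and 939 fell with all reads. Of 234 alternatives for 18 named entries, 232 kept direction and call. Depth limits the 333 entries with a day 7 library under 20 reads most, since a 0 allows 9.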

Other observations

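Shorter siRNAs sharing a run of 16 bases with a lost 24-nt guide were lost in larger shares than all of their length. Among 22-nt guides of this kind with at least 10 reads in all day 7 libraries, 23 of 46 (50.0%) were at 0 in all day 37 libraries, while the share was 20.4% over all 1030 22-nt guides with that minimum. At 23 nt it was 27 of 55 (49.1%) against 19.0% of 221, and at 21 nt 11 of 36 (30.6%) against 16.9% of 1786. Many of these guides were kept, with reads in all day 37 libraries for 18 at 21 nt (50.0%), 18 at 22 nt (39.1%) and 26 at 23 nt (47.3%). The run ATCCGATCTTGAACACCCC, held by 22 24-nt siRNAs, was also in 5 siRNAs of 23 nt, which summed to 2293, 2544 and 2463 reads at day 7, 156, 134 and 174 at day 22 and 12, 17 and 18 at day 37, and in 0 of 2771 siRNAs of 21 nt and 0 of 1705 of 22 nt. The run GATACGGATTCGG was in 3 siRNAs of 22 nt, with 2593, 2689 and 2848 reads at day 7, 267, 257 and 276 at day 22 and 0 at day 37. It was also in 2 siRNAs of 23 nt, with 448, 475 and 505 reads at day 7, 27, 18 and 25 at day 22 and 0 at day 37, and in 1 of 21 nt, which had 303, 312 and 247 reads at day 7, 88, 101 and 74 at day 22 and still 12, 15 and 20 at day 37. These shares are descriptions, since siRNAs that share a run are not independent.

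Among miRNAs that target the silencing machinery, 9 of 10 entries of miR168 (AGO1) and 2 of 2 of miR403 (AGO2) were higher at day 22 than at day 7, and 2 of 4 of miR162 (DCL1) were lower, by the edgeR test, with the others not passing. Over all 7294 entries tested 35.3% were higher and 34.5% lower. The siRNA table lists 12162 further guides, not counted in any library, whose strands are written in the mirrored direction, and the first letter of those is not a 5′ base.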
